A study of Mus musculus with 6 samples.

Results

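The genes described here mark T cells and natural killer (NK) cells, and they were read in whole kidneys of Nampt knockout and control mice. These lymphocytes recognise antigen or stressed cells, and some of them kill such cells. The 9 genes are Cd3d, Cd3e, Cd3g, Cd4, Cd8a, Cd2, Cd28, Gzma and Nkg7, out of 21154 genes named on the array. Every array probe whose RefSeq accession belongs to one of them was taken, which gave 13 of the 55681 probes, with a pair of probes each for Cd2, Cd4, Cd8a and Nkg7 and 1 probe for each of the other 5 genes. All 9 were tested, because each had a probe that every array of either group or of both read as well above background.

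Total RNA of 3 iNampt-conditional knockout kidneys and 3 control kidneys, all from male C57BL/6J mice, was hybridised to single-colour Agilent 8x60K arrays, 1 array per numbered sample. Nampt makes the NAD precursor of the salvage pathway, and the series title places the work in renal proximal tubules. The age of the mice, the Cre driver and the genotype of the controls beyond the word control are not given in the sources used here. The labels number the replicates without saying that each is a separate mouse. Each is taken here as 1 mouse, so the spread is read as that between animals.

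A T cell reads antigen through its T cell receptor, which signals through the CD3 chains, while the coreceptors CD4 and CD8 bind major histocompatibility complex proteins on the presenting cell. CD2 and CD28 are surface receptors that add adhesion and a second signal. NK cells and cytotoxic T cells store granzymes in granules and release them onto target cells. In a healthy kidney such lymphocytes are a minor population beside the tubular epithelium.

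Values are log2 signals relative to the 75th percentile of the same array, called normalised log2 signal below, so that a value of 0 is the level of that percentile. The arrays read 57.3% to 63.3% of their spots as well above background, and saturation flagged 0 spots. The lowest signal called well above background was 18.5 to 20.9 units in the first row of the slide, which held knockout 1 and the 3 controls, and 29.6 and 32.2 units for knockouts 2 and 3 in the second row. Nampt lay between 1.50 and 1.80 in the knockouts and between 2.59 and 2.78 in the controls, a log2 difference of -1.06 (limma adjusted p = 0.0431), and this call was lost in 9 of 18 other settings, with adjusted p from 0.00880 to 0.180. The proximal tubule marker Slc34a1, a phosphate transporter, averaged 8.20 ± 0.02 in the knockouts and 8.23 ± 0.07 in the controls (SD, n = 3 each). Over 8 proximal tubule markers tested, 4 differences were above 0, 0 passed and the median was -0.0040.

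None of the 9 genes passed the test over all genes (limma, Benjamini-Hochberg adjusted p under 0.05), where 0.17% of the 15309 genes tested did (0.105% higher and 0.0653% lower in the knockouts). Their adjusted p lay between 0.225 and 0.999, and 3 of them had an unadjusted p under 0.05, a share that 12.8% of all genes reached. The log2 differences, knockout minus control, ran from -0.41 for Gzma to 0.58 for Cd2, with 6 above 0 and 3 below, against 47.1% above 0 over all genes. Their median was 0.05, beside -0.0077 for all genes. With 3 arrays a group, 0.1 is the smallest p that an exact permutation test could give, so the fit across all genes is the test given. In whole kidney, fewer cells of a type and less RNA per cell cannot be told apart.

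**Figure D1:**
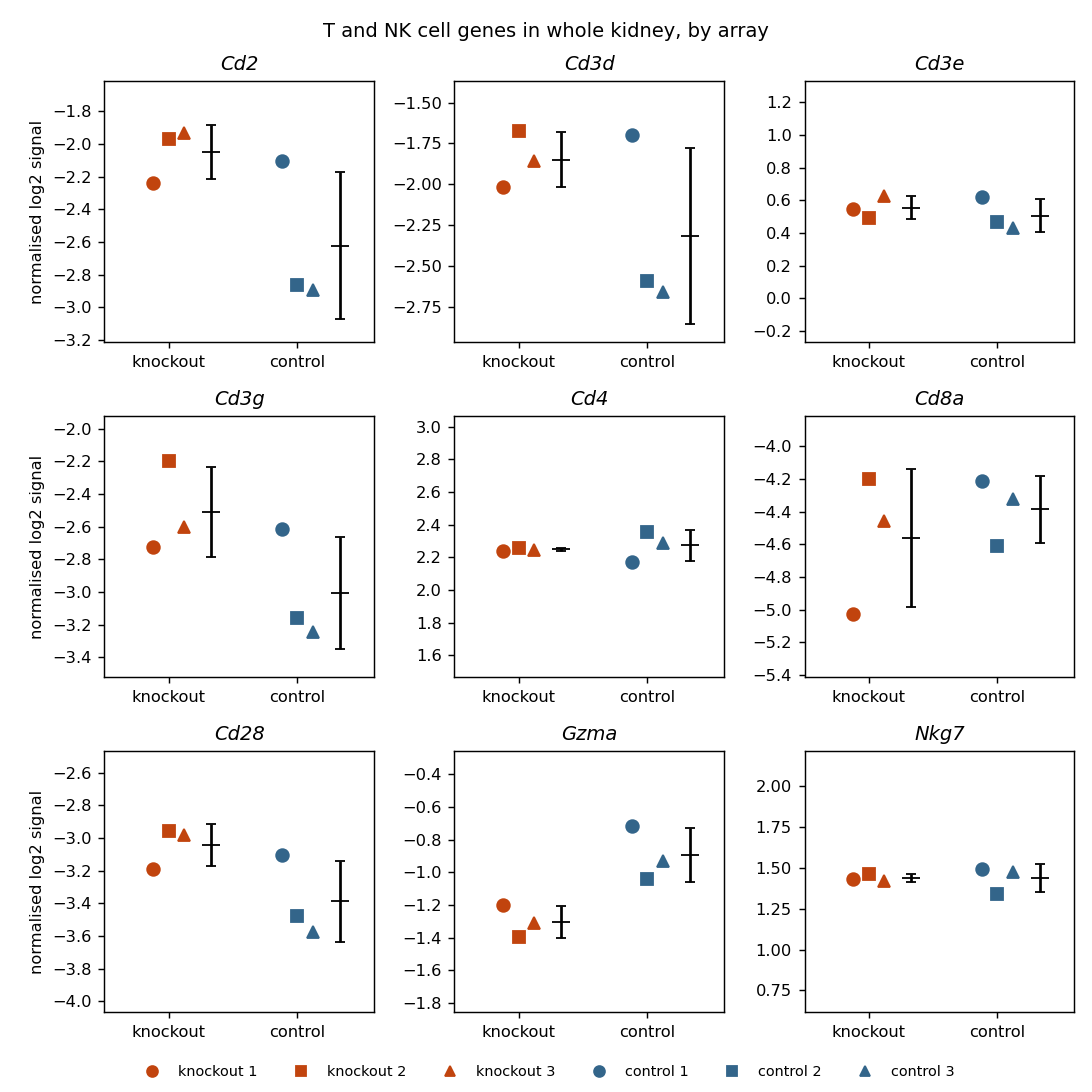
Normalised log2 signal (y axis, 1.6 log2 units in every panel) of the probe used for each of the 9 genes, with each array as a point and the mean ± SD (n = 3) beside it, knockouts left of controls. Control 1 sits with the knockouts for Cd2, Cd3d, Cd3g and Cd28, and all 3 knockouts lie below all 3 controls for Gzma.

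The CD3 chains form the signalling part of the T cell receptor. Cd3d, Cd3e and Cd3g lie close together on chromosome 9 in the RefSeq table, where Cd4 and Cd8a are on chromosome 6, Cd2 on 3, Cd28 on 1 and Nkg7 on 7. Cd3g and Cd3d start 1355 bases apart on opposite strands. The promoter windows of these 3 genes are shown because Cd3d and Cd3g varied together over the arrays while Cd3e varied little, and that of Gzma, on chromosome 13, because Gzma differed in the opposite direction. Each window holds the 250 bases before and the 50 bases after a RefSeq start in build GRCm38.p6, 5′ to 3′ on the strand of the gene, and capitals mark each E-box of the letters CAGGTG, or CACCTG on the other strand, a motif that E proteins bind. The windows are chr9:44981536-44981835 on the plus strand for Cd3d, chr9:44980382-44980681 on the minus strand for Cd3g, chr9:45009562-45009861 on the minus strand for Cd3e and chr13:113100932-113101231 on the minus strand for Gzma.
Cd3d: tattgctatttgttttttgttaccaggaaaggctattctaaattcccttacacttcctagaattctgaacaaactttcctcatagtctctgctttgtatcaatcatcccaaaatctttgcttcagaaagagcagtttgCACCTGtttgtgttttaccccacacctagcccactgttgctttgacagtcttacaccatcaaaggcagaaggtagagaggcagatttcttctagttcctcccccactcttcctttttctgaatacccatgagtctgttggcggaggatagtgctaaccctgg
Cd3g: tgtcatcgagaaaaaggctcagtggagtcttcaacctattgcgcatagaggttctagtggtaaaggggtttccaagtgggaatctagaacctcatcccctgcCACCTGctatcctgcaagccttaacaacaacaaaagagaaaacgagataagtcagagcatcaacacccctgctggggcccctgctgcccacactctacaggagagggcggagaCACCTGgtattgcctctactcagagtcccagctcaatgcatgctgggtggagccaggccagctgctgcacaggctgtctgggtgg
Cd3e: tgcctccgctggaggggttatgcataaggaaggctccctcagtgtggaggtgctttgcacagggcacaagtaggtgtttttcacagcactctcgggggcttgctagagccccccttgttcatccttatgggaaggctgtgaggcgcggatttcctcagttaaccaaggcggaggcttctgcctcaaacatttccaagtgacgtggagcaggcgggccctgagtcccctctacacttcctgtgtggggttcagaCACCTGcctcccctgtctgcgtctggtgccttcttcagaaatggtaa
Gzma: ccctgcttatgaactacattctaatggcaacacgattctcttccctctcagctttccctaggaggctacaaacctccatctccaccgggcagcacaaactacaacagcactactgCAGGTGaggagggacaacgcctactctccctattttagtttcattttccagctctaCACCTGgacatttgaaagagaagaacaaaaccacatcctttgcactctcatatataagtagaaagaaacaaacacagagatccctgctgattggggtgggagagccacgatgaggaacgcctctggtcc

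The E-box occurred 1 time in the Cd3d window, 2 times in that of Cd3g, 1 time in that of Cd3e and 2 times in that of Gzma, and 20.2% of 32851 such windows of the RefSeq table hold it. It was not in the windows of Cd8a and Nkg7, and 6 of the 9 genes had a window in the table. Further motifs were searched on both strands with no overlap between matches of different motifs. The ETS letters AGGAAG, held by 35.4% of windows, matched 2 times each in Cd3d and Cd3e and 1 time in Nkg7. The TCF or LEF letters CTTTGA, in 16.0% of windows, matched 2 times in Cd3d, and the RUNX letters TGTGGT, in 16.8%, matched 1 time each in Gzma and Nkg7. The match of letters is a description of the windows. The E-box was in those of all 3 CD3 genes, and its part in their values was not tested.

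Cd3d, the CD3 delta chain, had a normalised log2 signal of -2.01, -1.67 and -1.86 in knockouts 1, 2 and 3, against -1.70, -2.59 and -2.66 in controls 1, 2 and 3. Control 1 lay among the knockouts, controls 2 and 3 lay below every knockout, and the groups overlapped. The difference was 0.47 ± 0.27 (log2, SE; limma adjusted p = 0.540), with -1.85 ± 0.17 in the knockouts and -2.32 ± 0.54 in the controls (SD, n = 3 each). In processed signal units Cd3d read 205 to 245 in the knockouts and 126 to 270 in the controls.

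Cd3g, the CD3 gamma chain, lay at -2.73, -2.20 and -2.60 in knockouts 1 to 3, against -2.62, -3.16 and -3.25 in controls 1 to 3. Knockout 1 was here the lowest knockout and lay below control 1, so the groups overlapped again. Its difference was 0.50 ± 0.21 (log2, SE; limma adjusted p = 0.406). Cd3e, the CD3 epsilon chain, which is needed to assemble the receptor, read 0.55, 0.49 and 0.63 in the knockouts and 0.62, 0.47 and 0.43 in the controls. All 6 arrays of Cd3e lay close together, and its difference was 0.05 ± 0.07 (adjusted p = 0.822), with a 95% confidence interval from -0.12 to 0.22. The 3 chains are made by the same cells, but the spread of their probes differed. The 3 controls spanned 0.96 log2 units for Cd3d and 0.63 for Cd3g, and 0.19 for Cd3e. Over the 6 arrays the Pearson r of Cd3e was 0.73 with Cd3d and 0.50 with Cd3g, beside 0.94 between Cd3d and Cd3g. What else the Cd3e probe may bind was not tested.

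CD4 and CD8 divide T cells into helper and cytotoxic cells. The probe used for Cd4, A_55_P2013655, read 2.24, 2.26 and 2.25 in the knockouts and 2.17, 2.36 and 2.29 in the controls, a difference of -0.02 ± 0.06 (log2, SE; limma adjusted p = 0.904) with a 95% interval from -0.17 to 0.12. The other Cd4 probe, A_52_P383089, gave 22.1 to 28.8 processed units in the knockouts and 29.3 to 29.9 in the controls, close to the limit of detection. It was well above background on 1 of 3 knockout arrays and on all 3 control arrays, and the knockout arrays on which it was not were those of the second slide row, where that limit was higher. Its normalised signal was -5.06, -4.76 and -5.19 in the knockouts and -4.87, -4.88 and -4.76 in the controls, a difference of -0.17 ± 0.12 (limma over all probes, adjusted p = 0.683). Both Cd4 probes had intervals that include 0, and their Pearson r over the 6 arrays was 0.20. What else the Cd4 probes may bind was not tested.

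Cd8a, the alpha chain of CD8, was near the limit of detection with both probes. The probe used, A_52_P443334, was well above background on 2 of 3 knockout and 3 of 3 control arrays, so it was kept only through the controls. The array on which it was not was knockout 3, in the second slide row, where the limit of detection was higher. The probe read -5.03, -4.20 and -4.46 in the knockouts, against -4.21, -4.61 and -4.32 in the controls. Knockout 1 was the lowest array and knockout 2 the highest, so the knockouts spanned the whole control range. The difference was -0.18 ± 0.23 (log2, SE; limma adjusted p = 0.799). The other probe, A_52_P150547, was well above background on 1 of 3 knockout and 3 of 3 control arrays, and its difference was -0.04 ± 0.16 (limma over all probes, adjusted p = 0.955). The 95% interval of the probe used, from -0.73 to 0.37, includes 0 and holds changes in either direction.

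CD2 is an adhesion receptor of T and NK cells whose ligand in the mouse is CD48, and it gave the largest positive difference of the 9 genes with the probes used. Cd2 read -2.24, -1.97 and -1.93 in the knockouts and -2.11, -2.86 and -2.90 in the controls (probe A_55_P2077901). Controls 2 and 3 lay below every knockout and control 1 lay above knockout 1. The difference was 0.58 ± 0.23 (log2, SE; limma adjusted p = 0.381), with -2.05 ± 0.17 in the knockouts and -2.62 ± 0.45 in the controls (SD, n = 3 each). A further Cd2 probe, A_51_P126067, also had control 1 above controls 2 and 3, at -4.59, -4.36 and -4.60 in the knockouts and -4.51, -5.02 and -5.00 in the controls, with a difference of 0.32 ± 0.16 (limma over all probes, adjusted p = 0.531). That probe was close to the limit of detection. It was well above background on 2 of 3 knockout and 3 of 3 control arrays, so it was kept only through the controls.

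CD28 is the costimulatory receptor that binds CD80 and CD86 on antigen-presenting cells. Cd28 read -3.19, -2.96 and -2.98 in the knockouts, against -3.11, -3.48 and -3.58 in the controls. Again controls 2 and 3 lay below every knockout and control 1 lay above knockout 1. The difference was 0.34 ± 0.14 (log2, SE; limma adjusted p = 0.384). Over the 6 arrays Cd2, Cd3d, Cd3g and Cd28 followed one another, with Pearson r between 0.93 and 0.99 over their 6 pairs. This correlation describes 6 arrays that also differ by group, slide row and the amount of other leukocyte RNA, and these 4 genes were picked after their values were seen.

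Granzyme A, a serine protease of cytotoxic granules, was the one member whose groups did not overlap, where groups did not overlap in 19.5% of all genes (9.04% higher and 10.5% lower in the knockouts). Gzma read -1.20, -1.40 and -1.31 in the knockouts and -0.71, -1.04 and -0.93 in the controls, so all 3 knockouts lay below all 3 controls. The difference was -0.41 ± 0.10 (log2, SE; 95% interval from -0.65 to -0.16), a fold of 0.753 over the controls. It did not pass over all genes (limma adjusted p = 0.225). In processed units Gzma read 296 to 361 in the knockouts and 419 to 534 in the controls, far above the limit of detection. Its Pearson r with Cd2, Cd3d, Cd3g and Cd28 over the 6 arrays was between -0.51 and -0.28.

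Nkg7, a membrane protein of the granules of NK and cytotoxic T cells, differed between its probes. With the probe used, A_55_P2009582, it read 1.43, 1.46 and 1.42 in the knockouts and 1.50, 1.34 and 1.48 in the controls, all within 0.16 log2 units, and the difference was 0.00031 ± 0.06 (limma adjusted p = 0.999). With the other, A_51_P499195, it read -2.31, -2.23 and -1.60 in the knockouts and -1.999, -2.46 and -2.96 in the controls. Knockout 3 was the highest array and control 3 the lowest, and the groups overlapped (0.42 ± 0.30, limma over all probes, adjusted p = 0.679). The dimmer probe varied with Cd2, Cd3d, Cd3g and Cd28 (r between 0.65 and 0.84 over 6 arrays), while the pair of Nkg7 probes had an r of -0.04. Which of them reads Nkg7 alone was not tested.

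**Figure D2:**
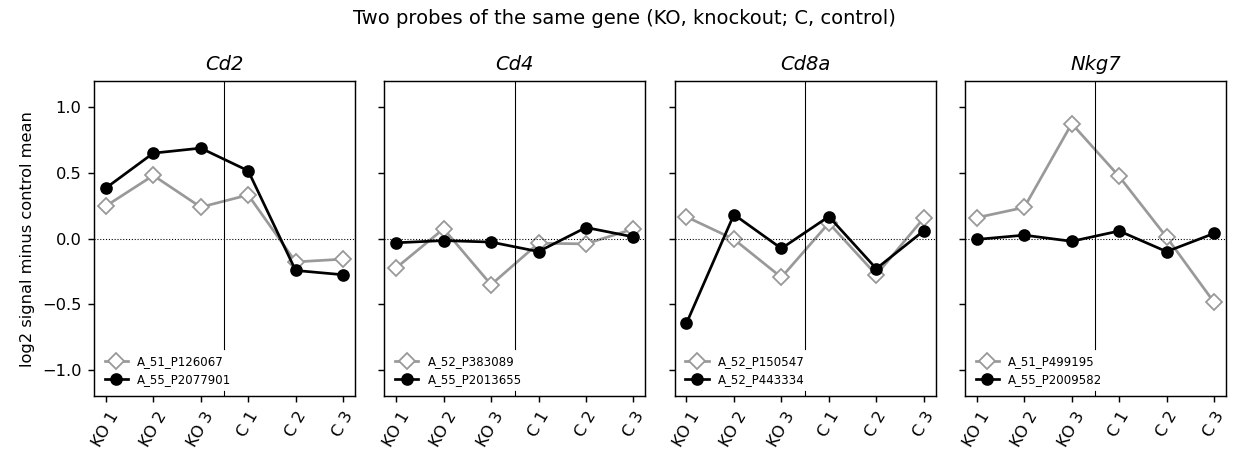
Log2 signal minus the control mean (y axis) on each array (x axis, knockouts left of controls) for the genes with a pair of probes, with filled circles for the probe used and open diamonds for the other, and lines that join the arrays of a probe. The Cd2 probes run together, while for Nkg7 the probe used stays near 0 and the other spans 0.96 log2 units over the controls.

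The choice of probe therefore moved the summary of the 9 genes. The rule takes the brightest probe that passed the background filter, and it gave a median difference of 0.05. With the mean of the probes of a gene the median was 0.21, and with the dimmest such probe, an alternative chosen after seeing the data, it was 0.32. No member passed the test under any of these (limma, 3, 2 and 2 members at an unadjusted p under 0.05). The highest positive differences came from genes whose arrays also spread the most within the controls.

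**Figure D3:**
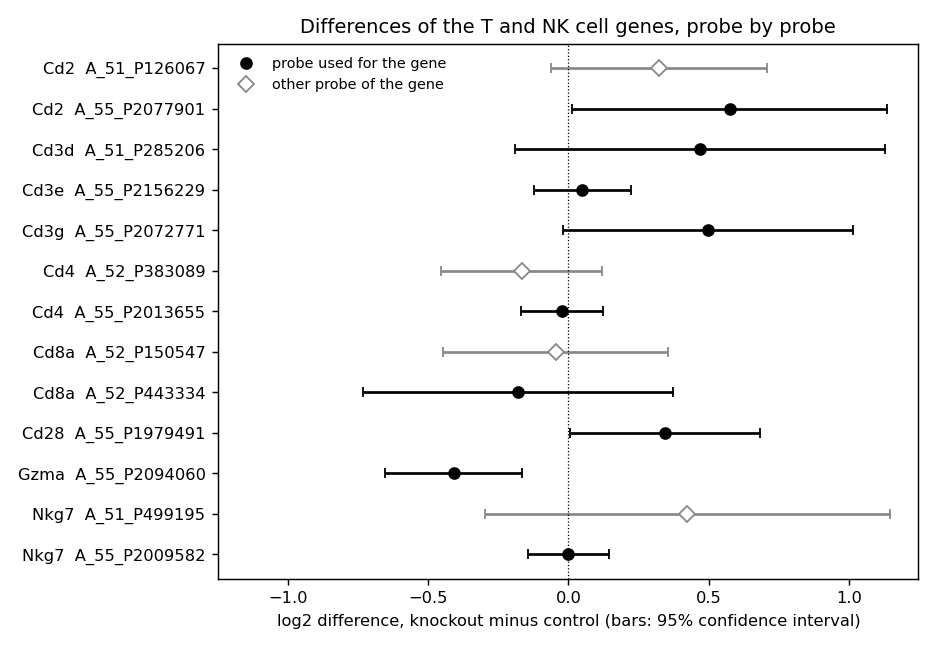
Log2 difference, knockout minus control (x axis), with its 95% confidence interval from limma, for all 13 probes of the 9 genes. Filled circles are the probes used and open diamonds the other probes. The interval of Gzma lies below 0, those of Cd3e and of the probes used for Cd4 and Nkg7 are narrow around 0, and those of Cd28 and of the probe used for Cd2 lie just above 0 before adjustment, while that of the other Cd2 probe includes 0.

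The controls were not alike for these genes. Control 1 was the highest of the 3 controls for 8 of the 9 members, where it was the highest for 29.1% of all genes. For Cd2, Cd3d, Cd3g and Cd28 the step from control 1 to control 2 was as large as the difference between the groups or larger. Without control 1 the differences were 0.83 for Cd2, 0.78 for Cd3d, 0.69 for Cd3g, 0.48 for Cd28 and -0.32 for Gzma, with limma adjusted p of 0.0839, 0.0991, 0.221, 0.161 and 0.235. The knockouts then lay above both other controls for 5 members, where 15% of all genes did. Control 1 was picked out because it was high for these members. The count therefore follows in part from that choice, and the share of all genes is not a like baseline. Still 0 members passed, with 5 at an unadjusted p under 0.05 (limma, 0.222% of all genes passed there). Without control 3 the differences were 0.44 for Cd2, 0.29 for Cd3d, 0.38 for Cd3g and 0.25 for Cd28. In the first slide row alone, which sets knockout 1 against the 3 controls, they were 0.39, 0.30, 0.28 and 0.20, and Gzma was at -0.31 (limma, slide row block, adjusted p = 0.561 for Gzma and 0.779 or above for the other 4). The part that control 1 plays in the differences is the measurement just given, and what made control 1 differ was not tested.

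Other genes of T and NK cell pathways were read through 7 lists with 101 names, of which 93 were on the array and 62 were tested. Some of them, such as Cd86 and Fcer1g, are also made by other leukocytes, so the lists do not read T and NK cells alone. On the same arrays 11 of 12 macrophage and dendritic cell markers were above 0, and their part in these counts was not tested. None of the 62 passed over all genes (limma, 15 at an unadjusted p under 0.05, 11 higher and 4 lower), and the knockouts and controls did not overlap in 12 of them, or 19.4%, against 19.5% of all genes. Of the 62, 47 had a difference above 0, or 75.8%, against 47.1% of all genes, and their median was 0.21, beside -0.0077 for all genes. Control 1 was the highest control in 38 of the 62.

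In T cell receptor signalling, 11 of 13 tested genes were above 0, 0 passed and the median was 0.34. Ptpn22, a phosphatase that restrains the receptor, read -1.31, -1.23 and -1.19 in the knockouts and -1.84, -1.90 and -1.64 in the controls. Its groups did not overlap and its difference was 0.55 ± 0.08 (log2, SE; limma adjusted p = 0.101). The adaptor gene Skap1 was at 0.45 ± 0.14 and Vav1, a guanine nucleotide exchange factor, at 0.34 ± 0.12, also without overlap (adjusted p = 0.302 and 0.334). The kinase gene Lck, which starts the signal from the receptor, was at 0.39 ± 0.19, with -0.32, 0.02 and -0.11 in the knockouts and -0.11, -0.76 and -0.71 in the controls. Control 1 lay above knockout 1 for Lck, and controls 2 and 3 lay below every knockout, as for Cd2 and Cd28.

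Among the receptor complex and coreceptors, 4 of 8 names were on the array and tested, and 0 passed. Cd5, a surface regulator of T cells, was at 0.39 ± 0.17, and Cd8b1, the beta chain of CD8, at 0.77 ± 0.65 with knockouts from -4.67 to -2.07 and controls from -4.64 to -3.84. Cd247, which encodes the CD3 zeta chain, was at -0.49 ± 0.31 with overlapping groups, was kept only through the controls and was well above background on 2 of 3 knockout arrays. Cd6 was at 0.11 ± 0.12 by the probe used and at -0.23 by its other probe. All 4 had adjusted p of 0.410 or above.

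For costimulation and checkpoints, all 7 tested genes were above 0 with 0 passing and a median of 0.22, and for 6 others, among them Ctla4, Pdcd1 and Cd40lg, no probe was well above background on any array. Havcr2, the checkpoint receptor TIM-3, was at 0.88 ± 0.34 (limma adjusted p = 0.369). It was well above background on 3 of 3 knockout and 2 of 3 control arrays, so it was kept only through the knockouts, where it is high. The ligands of the members sit here: Cd86, the CD28 ligand, was at 0.31 ± 0.14, and Cd48, the CD2 ligand, at 0.22 ± 0.11 (adjusted p = 0.411 and 0.483). For both, control 1 lay within the knockout range.

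Cytokine and homing receptors had 8 of 10 tested genes above 0 and a median of 0.31, with 0 passing. Il7r, the receptor for the T cell survival factor interleukin 7, read -4.38, -3.79 and -3.94 in the knockouts and -4.89, -5.03 and -4.79 in the controls, a difference of 0.87 ± 0.16 without overlap (limma adjusted p = 0.154). Ccr7, the receptor that guides T cells to lymph nodes, was at 0.69 ± 0.21 and S1pr1, which lets them leave, at 0.28 ± 0.07, both without overlap. Without knockout 1 Il7r passed (1.04, limma adjusted p = 0.0411), as did 57 of 15309 genes. Without control 1 Ccr7 passed (0.95, limma adjusted p = 0.0429), as did 34 of 15309 genes. Neither passed with any other array left out. Il7r was dim, and with another background correction (normexp) its difference was 0.27 (limma adjusted p = 0.104).

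The lineage transcription factors stood near 0, with a median of 0.02 and 7 of 12 tested genes above 0. Runx3, a factor of cytotoxic T cells, was at -0.21 ± 0.07, Bcl11b, which keeps T cell identity, at 0.14 ± 0.05 and Tcf7, a factor of naive T cells, at 0.43 ± 0.17, each without overlap and none passing (limma adjusted p from 0.309 to 0.369). Tcf7 was well above background on 2 of 3 knockout arrays. Several factors of this list are also made by kidney cells, so it does not read lymphocytes alone.

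The cytotoxic effectors had a median of 0.08, with 5 of 9 tested genes above 0. Prf1, the pore protein perforin that lets granzymes into target cells, read -1.35, -1.20 and -1.23 in the knockouts and -0.99, -0.99 and -1.05 in the controls. Like Gzma, its groups did not overlap and lay lower in the knockouts, by -0.25 ± 0.06 (log2, SE; limma adjusted p = 0.207). Of the 9 tested genes 4 were below 0, and the groups did not overlap in Prf1 alone. Gzmm was at 0.24 ± 0.12, Ctsw, the cathepsin W gene, at 0.36 ± 0.18 and Ccl5, a chemokine of T and NK cells, at 0.61 ± 0.33, with overlapping groups.

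Of the NK cell receptors and adaptors, 7 of 20 names were tested, with 6 above 0, a median of 0.20 and 0 passing. Fcer1g, an adaptor that macrophages also make, was at 0.25 ± 0.09. Klrd1, which encodes CD94, was at 0.89 ± 0.41 with control 1 among the knockouts, and Cd226 at 0.44 ± 0.22. Klra8, an activating Ly49 receptor, was at -0.85 ± 0.33, with 1 of 3 knockout arrays well above background, and was kept only through the controls. No probe for Ncr1, Klrk1, Klre1 or Eomes, which serve as NK cell markers below, was well above background on any array. The adjusted p of the 4 genes with values lay between 0.359 and 0.472 (limma).

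**Figure D4:**
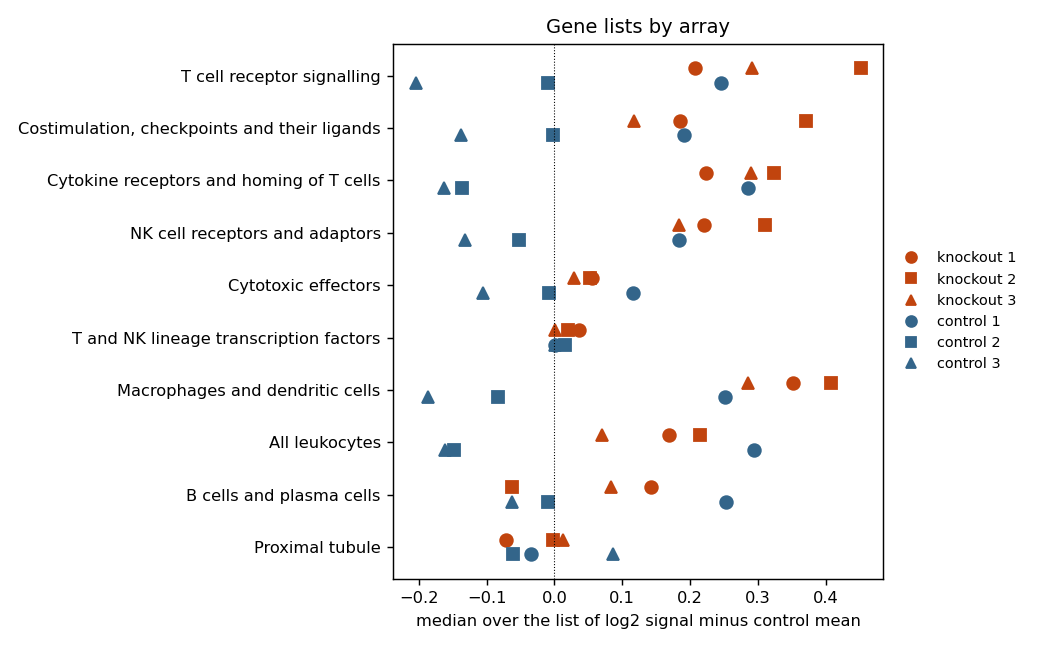
Median over each gene list (rows) of the log2 signal minus the control mean (x axis), with each array as a point, knockouts above controls in each row. Control 1 lies among the knockouts in the T cell receptor signalling, costimulation, homing and NK receptor rows and above them in the all-leukocyte row, and in the proximal tubule row all 6 arrays lie between -0.07 and 0.09.

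Short lists of cell type markers hold some of the same genes. Of 12 T cell markers, 10 were tested, 7 of them members; 7 were above 0, 0 passed and the median was 0.37. Of 10 NK cell markers, 5 were tested, 2 were above 0, 0 passed and the median was -0.25. Prf1, Gzma and Klra8 of this list were lower without overlap, where 10.5% of all genes were, but Klra8 was kept only through the controls, where it is high.

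Markers of other leukocytes varied over the same arrays. Of 12 macrophage and dendritic cell markers, 12 were tested and 11 were above 0, with a median of 0.30, and 0 passed over all genes (limma, 9 at an unadjusted p under 0.05). Their groups did not overlap in 8 of the 12, where 19.5% of all genes did so. Csf1r, the receptor of the macrophage growth factor, was at 0.28 ± 0.06, Itgax, the dendritic cell integrin CD11c, at 0.78 ± 0.19, and the summed level of the list, in multiples of the 75th percentile of the array, was 62.5 to 67.3 in the knockouts and 47.4 to 56.0 in the controls. Markers of all leukocytes had 6 of 8 above 0 and 0 passing, with summed levels of 13.2 to 14.8 in the knockouts and 11.5 to 15.3 in the controls. Ptprc, which encodes CD45 on all white blood cells, read -1.37, -1.35 and -1.44 in the knockouts and -1.28, -1.76 and -1.77 in the controls, and Laptm5 was at 0.52 ± 0.10 without overlap (adjusted p = 0.162). Control 1 was the highest control for all 12 macrophage markers and all 8 leukocyte markers tested. The part of these cells in the T and NK cell values was not tested.

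B cell and plasma cell markers were tested for 6 of 12 names, with 2 above 0, 0 passing, a median of -0.02, and summed levels of 2.95 to 3.91 in the knockouts and 2.47 to 3.04 in the controls; no array read Blk or Tnfrsf17 as well above background. Of 5 neutrophil markers tested, 2 were above 0 and 3 had all knockouts below all controls, where 10.5% of all genes did. The difference was -2.39 ± 0.37 for S100a8, -2.34 ± 0.39 for its partner S100a9 and -1.16 ± 0.31 for Retnlg, without overlap (limma adjusted p = 0.115, 0.132 and 0.253), and 0 passed. But Retnlg was well above background on 2 of 3 knockout arrays and was kept only through the controls, where it is high. Camp, an antimicrobial peptide gene of the same list, was at 0.11 ± 0.19. The summed neutrophil level was 135.6 to 139.9 in the knockouts and 140.03 to 141.7 in the controls. Most of that sum came from a tested gene of the list that is not reported here, so it says little about the genes named. Whether neutrophils bear on Gzma was not tested. The list medians relative to the control mean also differed among arrays for adipocytes, at -1.51, -2.24 and 0.57 in the knockouts and 0.51, -0.63 and 0.10 in the controls, and for erythroid cells, at -0.04, -0.95 and -1.08 in the knockouts and 0.13, 0.04 and -0.17 in the controls. Lymph node stroma markers lay between 0.09 and 0.24 in the knockouts and between -0.06 and 0.14 in the controls.

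The mean profile of the 9 members over the arrays, relative to their own mean, was -0.05, 0.17 and 0.10 in the knockouts and 0.17, -0.21 and -0.19 in the controls. Among 985 other tested genes that ranged over at least 1 log2 unit, Ccl5 was most like it, with a Pearson r of 0.98 over 6 arrays. It read 0.74, 1.35 and 1.21 in the knockouts and 1.20, 0.07 and 0.19 in the controls. Ms4a4b, a membrane protein gene of the Ms4a family, followed with an r of 0.98, at -0.84, -0.47 and -0.64 in the knockouts and -0.39, -1.30 and -1.39 in the controls. The next were Armc3, which encodes an armadillo repeat protein (r = 0.97), Bub1b, a mitotic checkpoint kinase (0.96), and Vwa1, a matrix protein (0.94). With 6 arrays and many candidates, high values of r are to be found in any such search, and they carry no test.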

How the data were processed

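Per the file headers, the authors read single-colour Cy3 arrays with version 10.7.1.1 of Agilent's Feature Extraction. Each deposited scanner file gives linear intensity per spot, background-subtracted and detrended within each array and not scaled between arrays, with 0 or 1 flags per spot. The authors' deposited value table is a linear ratio, equal to the processed signal over a constant of each array for all probes with a ratio above 1 (tolerance 1%), and its column medians lie between 0.075 and 0.084 with no log scale or gene centring found.

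Spots flagged as outliers, 92 to 151 an array, were dropped, log2 was taken, spots of a probe were averaged and the 75th percentile of each array was subtracted. The 32948 probes kept were those that every array of a group read as well above background. They were named through RefSeq accessions of GRCm38.p6 (28026 of 55681 probes, 21154 genes), and each of 15309 genes was read by its brightest kept probe. The array's own probe build is mm9, so RefSeq gives names, neighbours and promoter windows alone. The groups were compared by limma 3.58.1 in R 4.3.3, checked first on simulated data, with Benjamini-Hochberg adjustment over all genes. Confidence intervals are limma's, at 95%. Other probes of a gene have the p of the same fit over all 32948 kept probes. Python 3.11.15, pandas 2.3.3 and matplotlib 3.10.9 were used.

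The members and lists were chosen with earlier results of these data known. Named are all members, Nampt, up to 4 genes of smallest p in each list described, and the 5 genes most like the members' mean profile. Some genes of the lists are not reported here, though the counts include them. Lck and Slc34a1 come from the T cell and proximal tubule marker lists by the same rule. Alternatives were other normalisations (quantile, the median of detected probes, normexp with offset 50), the deposited ratios, other filters, probe rules and variance models, replicate and slide row blocks and leaving out each array. Normexp used median spot signals.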

Additional observations from a re-analysis of the deposited data

How the results depend on the processing

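No member passed under any of the 18 other settings (limma, 1 to 5 members at an unadjusted p under 0.05). Cd2, Cd3d, Cd3e, Cd3g, Cd28 and Gzma kept their sign in all of them, with differences from 0.32 to 0.83 for Cd2, 0.29 to 0.78 for Cd3d, 0.01 to 0.11 for Cd3e, 0.22 to 0.69 for Cd3g, 0.20 to 0.48 for Cd28 and -0.48 to -0.31 for Gzma. The members' median was 0.20 with a filter on all 6 arrays, which drops Cd8a, 0.21 with the mean over its probes for each gene, 0.32 with the dimmest probe, and 0.01 to 0.11 when 1 array was left out. Nkg7 turned to -0.0031 with the median of detected probes, -0.0058 with normexp, -0.0011 with the deposited ratios and -0.0057 with slide row as a block, and ran from -0.0490 to 0.0296 with 1 array left out; Cd4 ran from -0.0731 to 0.0185 and Cd8a from -0.36 to 0.0544. Camp turned to -0.0738 with normexp, and ranged from -0.0649 to 0.29 with 1 array left out, where Cd22 ran from -0.0757 to 0.0365. Cd6 turned to -0.0627 with the mean of its probes and -0.23 with the dimmest. With slide row as a block Cd8a was at -0.64, Cd8b1 at -0.45 and Ms4a1 at 0.0557.

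Over all genes 26 passed, against 11 with quantile normalisation, 77 with no filter on dim probes, 57 with a trended and robust variance, 16 with slide row as a block, 0 with the replicate block (limma, 1636 at an unadjusted p under 0.05) and 0 to 57 with 1 array left out (0 without control 2 or 3, 1 without knockout 2 or 3, 57 without knockout 1). Of the 62 genes of the associated lists, 0 to 1 passed with 1 array left out and 0 under the other settings. S100a8 and S100a9 passed without knockout 1 (-2.80 and -2.78, adjusted p = 0.0264 and 0.0209). Same-numbered arrays did not deviate together (r = 0.10, -0.10 and -0.03 for numbers 1, 2 and 3). With 3 arrays a group this cannot tell whether the numbers pair the mice, and 0 members passed with the replicate block. The cause of these shifts was not tested. Signal over background limits Cd8a, the dim probes of Cd4 and Cd2 and dim genes of the lists such as Il7r, and 3 arrays a group limit every difference.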

Other observations

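Of the 6 tested genes of the B cell and plasma cell list, 0 passed over all genes, and the 4 of smallest p are given as values. Mzb1, a chaperone of plasma cells, read -1.67, -1.90 and -1.89 in the knockouts and -2.64, -2.33 and -2.41 in the controls, a difference of 0.64 ± 0.11 without overlap (log2, SE; limma adjusted p = 0.131). Jchain, which joins secreted antibodies, was at 0.87 ± 0.33 with 0.75, 0.10 and -0.28 in the knockouts and -0.16, -1.05 and -0.84 in the controls, where knockout 3 lay below control 1. The B cell receptor gene Cd22 was at -0.03 ± 0.08 and Ms4a1, which encodes CD20, at -0.36 ± 0.39 and was kept only through the controls, with 1 of 3 knockout arrays well above background. The difference between these genes was not tested. Control 1, which was the highest control for 8 of the 9 T and NK cell genes, was the lowest control for Mzb1.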
